A study of Mus musculus with 4 samples.

Results

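Regulators of G-protein signalling (RGS proteins) were followed through 7 genes, Rgs1, Rgs2, Rgs3, Rgs10, Rgs14, Rgs16 and Rgs19, in CD4+Foxp3+ regulatory T cells (Tregs). The members were chosen by gene symbol from the 28032 features with an exon length, and all 7 passed the filter on low counts, which left 11113 genes tested. Tregs hold other immune cells in check, and their identity depends on the transcription factor Foxp3. They were sorted from C57BL/6 mice aged 8 weeks, either wild-type (WT) or labelled Csnk2b-/- and called Csnk2b-deficient. Csnk2b encodes the beta (regulatory) subunit of the kinase CK2. Each genotype had 2 libraries, the first from spleen and the second from tracheal lymph nodes, the draining nodes of the airways, so each genotype and tissue had 1 library. The labels name neither the promoter or Cre line behind the deletion nor any pooling of animals.

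Receptors for chemokines, sphingolipids and many other signals act through heterotrimeric G proteins, whose alpha subunit is active while it holds GTP. RGS proteins bind the active alpha subunit through a shared RGS domain and speed GTP hydrolysis, which shortens the signal. In lymphocytes they are known for tuning migration towards chemokines, and several are induced by activation. Rgs1, Rgs2, Rgs3 and Rgs16 encode proteins of one subfamily, in which Rgs2 prefers Gq-type alpha subunits. Rgs10 and Rgs14 belong to another subfamily, and Rgs14 also binds Ras-type GTPases and inactive Gi-type subunits. Rgs19 encodes the protein also called GAIP, which acts on Gi-type subunits.

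The shared domain leaves short identical stretches in the coding sequences, which are shown because reads from near-identical copies could be placed on more than 1 gene. Over the 21 pairs of members the longest identical run in the GENCODE M21 (GRCm38) coding sequence of the principal transcript was 23 bases, found in the pairs Rgs1 with Rgs2 and Rgs3 with Rgs16. The pair Rgs10 with Rgs14 followed with 19 bases, and the pair Rgs16 with Rgs19 had the shortest such run, of 8. Capitals mark the identical run, with up to 20 coding bases on either side. The runs start at coding base 334 of Rgs1, 328 of Rgs2, 2587 of Rgs3, 256 of Rgs16, 175 of Rgs10 and 253 of Rgs14, counted from the first base of the start codon.
Rgs1: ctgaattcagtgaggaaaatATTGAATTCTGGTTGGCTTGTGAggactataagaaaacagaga
Rgs2: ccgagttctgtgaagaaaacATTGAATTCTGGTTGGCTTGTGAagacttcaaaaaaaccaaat
Rgs3: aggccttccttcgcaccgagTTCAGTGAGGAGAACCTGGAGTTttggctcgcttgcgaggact
Rgs16: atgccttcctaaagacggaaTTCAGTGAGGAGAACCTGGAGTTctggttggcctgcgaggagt
Rgs10: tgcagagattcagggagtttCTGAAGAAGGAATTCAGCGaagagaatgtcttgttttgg
Rgs14: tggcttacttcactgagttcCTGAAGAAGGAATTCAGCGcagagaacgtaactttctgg
In the deposited counts 100% of the exon reads of the other 6 members were uniquely placed in every library, and Rgs3 was the exception. Its uniquely placed share was 70.6% (WT) and 71.1% (Csnk2b-deficient) for spleen Tregs, and 93.1% and 98.2% for lymph node Tregs. Rgs3 reads with more than 1 placement numbered 364 and 274 for spleen and 22 and 6 for lymph node Tregs, so their share was higher in the spleen. No exon read counted on the other 6 members had more than 1 placement, and where else the Rgs3 reads fell was not tested.

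Total exon reads were 4737814 to 6750695 per library, and genes with at least 1 exon read numbered 12157 to 15515, fewest in WT lymph node Tregs. Csnk2b, the targeted gene, had 649 reads in WT and 148 in Csnk2b-deficient libraries of the spleen, against 667 and 283 for lymph node Tregs (log2 fold change -1.54 ± 0.26, SE, n = 2 per genotype, edgeR adjusted p = 0.0658). All 8 Treg markers were read in every library, with a summed level of 4159 to 8533 CPM (exon reads relative to the scaled library size). Summed levels of the other marker lists were 12.5 to 52.5 CPM for CD8 T cells, 28.2 to 168 for B cells, 3.17 to 23.9 for dendritic cells, 20.04 to 400 for NK cells and 3.11 to 42.3 for red cells and platelets. Stromal markers summed to 103 to 249 CPM, nearly all of it Pecam1, while Col3a1 had 0 reads. Foxp3 itself had 6395 and 2160 reads in WT and Csnk2b-deficient spleen libraries and 2334 and 562 in those of the lymph node, and was lower by genotype (-1.66 ± 0.25, edgeR adjusted p = 0.0375). The myeloid list summed to 10.8 CPM (WT) and 6.75 CPM (Csnk2b-deficient) for spleen Tregs, and to 46.4 and 301 CPM for lymph node Tregs. In lymph node Tregs Lyz2 had 187 reads (WT) and 1291 (Csnk2b-deficient), and Csf1r had 0 and 38. Fcgr3 had 1 and 16 reads there, Emr1 0 and 15, Itgam 2 and 13, and Cd14 0 and 1. For spleen Tregs Lyz2 had 20 reads (WT) and 19 (Csnk2b-deficient), Csf1r 12 and 3, and Itgam 45 and 16. Fcgr3 had 3 and 1 reads in the spleen libraries, Emr1 5 and 0, and Cd14 0 and 0. Between the WT libraries only Lyz2 of this list was higher in the lymph node, where it gave 45.7 of the 46.4 CPM. The NK list was mostly Nkg7, and the NK-defining Ncr1 had 0 reads in all 4 libraries.

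The first comparison asked how RGS transcripts differed between Csnk2b-deficient and WT Tregs of the same tissue. Rgs1 was the member with a higher CPM in Csnk2b-deficient Tregs of both tissues by nearly the same factor, and Rgs10 was lower in both. By edgeR's quasi-likelihood test on tissue plus genotype, 0 of the 7 members passed an adjusted p of 0.05, beside 0.144% of all genes tested (14 higher and 2 lower, or 4 and 0 with DESeq2-type size factors). At an unadjusted p below 0.05 there were 2 members, Rgs1 and Rgs10, beside 4.88% of all genes. The same direction in both tissues was seen for 2 higher members, Rgs1 and Rgs16, beside 27.7% of all genes, and for 2 lower members, Rgs10 and Rgs14, beside 29.2%. The median log2 fold change of the members was -0.049, and that of all genes 0.0087. These p-values and SEs rest on 1 residual degree of freedom, the difference of the genotype change between tissues, with the spread shared across genes. No replicate animals stand behind them.

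**Figure D1:**
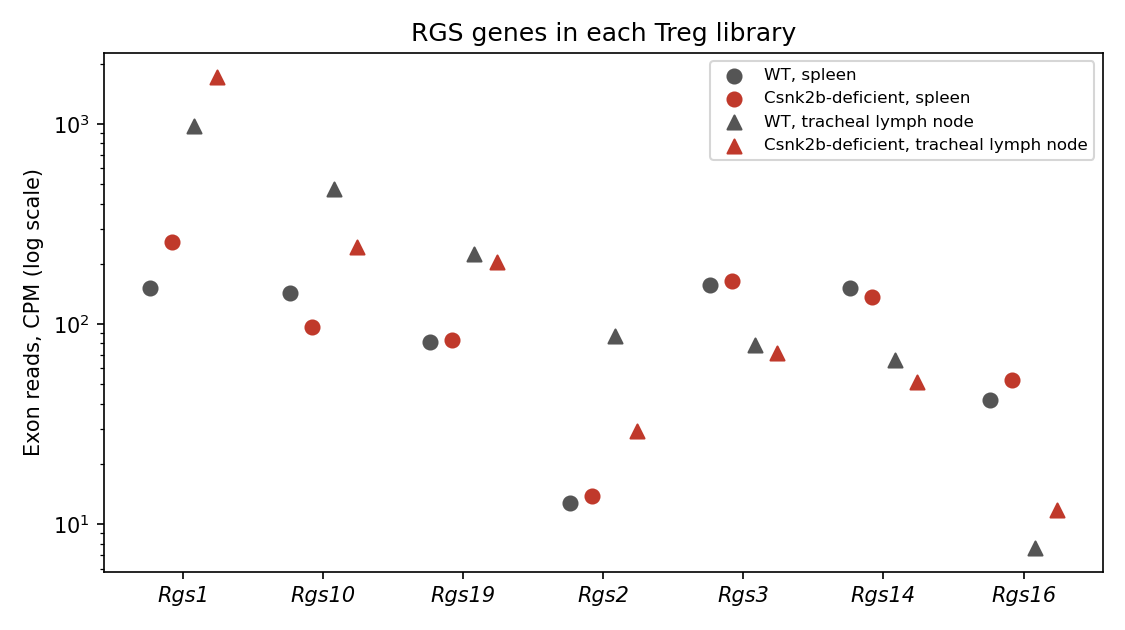
Exon reads in CPM on a log axis for each RGS gene, with 1 point per library (grey WT, red Csnk2b-deficient, circles spleen, triangles tracheal lymph node). Rgs1 spans 151 to 1725 CPM and is higher in the red point of each tissue, while Rgs10 is lower in the red point of each tissue.

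Rgs1, an activation-induced gene whose product dampens chemokine receptor signals, lies on chromosome 1 (146091102 to 146096372, mm9). It had 1190 exon reads (151 CPM) in WT spleen, 1489 (258 CPM) in Csnk2b-deficient spleen, 4019 (982 CPM) in WT lymph node and 7870 (1725 CPM) in Csnk2b-deficient lymph node Tregs. The Csnk2b-deficient library was the higher of each pair, but both lymph node libraries lay above both spleen libraries. The spleen pair had a ratio of 1.71 (95% interval 1.58 to 1.84) and the lymph node pair 1.76 (1.69 to 1.82). These intervals are exact binomial ones on the reads and cover counting error only, since each genotype and tissue had 1 library. The reads also carry no molecular identifiers, so copies of the same molecule may be counted as separate reads. The fitted log2 fold change of 0.79 ± 0.17 (SE, n = 2 per genotype) had an edgeR adjusted p of 0.215, and its unadjusted p of 0.000751 ranked 38 among the genes tested. The DESeq2 Wald test called Rgs1 higher (adjusted p = 0.00758, with 0.363% of genes called higher), as did limma-voom (0.0272, 0.351%) and edgeR without a filter (0.0109, 0.45%), and its adjusted p reached 1.00 without the tissue term. Beside these ratios, the myeloid marker sum was 10.8 CPM (WT) and 6.75 CPM (Csnk2b-deficient) for the spleen pair, and 46.4 and 301 CPM for the lymph node pair. The part of those cells in the Rgs1 difference was not tested.

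Rgs2, which encodes a regulator that favours Gq-type subunits, lies 239811 bases from Rgs1 on the same chromosome (145846468 to 145851291). It had 101 reads (12.8 CPM) in WT spleen, 80 (13.8 CPM) in Csnk2b-deficient spleen, 355 (86.8 CPM) in WT lymph node and 134 (29.4 CPM) in Csnk2b-deficient lymph node Tregs. WT lymph node Tregs stood highest, and the spleen libraries were alike. The spleen pair had a ratio of 1.08 (0.795 to 1.46) and the lymph node pair 0.339 (0.275 to 0.414), so the counting intervals of the tissues did not overlap. Whether the genotype difference itself depended on tissue has no test here, because each cell of the design holds 1 library. The joint log2 fold change was -0.76 ± 0.45 (edgeR adjusted p = 0.89).

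Rgs16, another activation-induced member, lies further along chromosome 1 (155587479 to 155592598). It had 331 reads (42.0 CPM) in WT spleen, 303 (52.4 CPM) in Csnk2b-deficient spleen, 31 (7.58 CPM) in WT lymph node and 54 (11.8 CPM) in Csnk2b-deficient lymph node Tregs. The Csnk2b-deficient library was again the higher of each pair, with ratios of 1.25 (1.06 to 1.46) and 1.56 (0.987 to 2.51). The lymph node interval includes 1, so that difference was not detectable at a depth of 31 and 54 reads. The log2 fold change was 0.46 ± 0.39 (edgeR adjusted p = 0.895).

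Rgs3, whose gene has the longest coding sequence of the members (966 codons), lies on chromosome 4 (62220881 to 62364052). It had 1237 reads (157 CPM) in WT spleen, 949 (164 CPM) in Csnk2b-deficient spleen, 320 (78.2 CPM) in WT lymph node and 327 (71.7 CPM) in Csnk2b-deficient lymph node Tregs. Its ratios of 1.05 (0.96 to 1.14) and 0.917 (0.783 to 1.07) both had intervals that include 1, and the log2 fold change was -0.03 ± 0.23 (edgeR adjusted p = 0.993). On uniquely placed reads the value was 0.01 ± 0.23, so no direction can be read for Rgs3.

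Rgs10, a short member of 181 codons that is abundant in immune cells, lies on chromosome 7 (135517135 to 135562272). It had 1129 reads (143 CPM) in WT spleen, 561 (97.0 CPM) in Csnk2b-deficient spleen, 1928 (471 CPM) in WT lymph node and 1106 (242 CPM) in Csnk2b-deficient lymph node Tregs. The Csnk2b-deficient library was the lower of each pair, with ratios of 0.678 (0.611 to 0.751) and 0.515 (0.477 to 0.554). The fitted log2 fold change of -0.76 ± 0.21 (SE, n = 2 per genotype) had an unadjusted p of 0.00403 and an edgeR adjusted p of 0.455. Its adjusted p over the 8 alternatives with all 4 libraries ranged from 0.0857 to 1.00, so no fit run called it.

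Rgs14, the Ras-binding member, lies on chromosome 13 (55471093 to 55486048). It had 1188 reads (151 CPM) in WT spleen, 789 (136 CPM) in Csnk2b-deficient spleen, 271 (66.2 CPM) in WT lymph node and 235 (51.5 CPM) in Csnk2b-deficient lymph node Tregs. The ratios were 0.906 (0.827 to 0.992) and 0.778 (0.65 to 0.93), with a log2 fold change of -0.25 ± 0.24 (edgeR adjusted p = 0.895). Rgs19, on chromosome 2 (181423124 to 181428682), had 644 reads (81.7 CPM) in WT spleen, 480 (83.0 CPM) in Csnk2b-deficient spleen, 913 (223 CPM) in WT lymph node and 937 (205 CPM) in Csnk2b-deficient lymph node Tregs. Its ratios of 1.02 (0.901 to 1.15) and 0.921 (0.839 to 1.01) lay closest to 1 of all members in the spleen, and the log2 fold change was -0.05 ± 0.22 (edgeR adjusted p = 0.983).

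**Figure D2:**
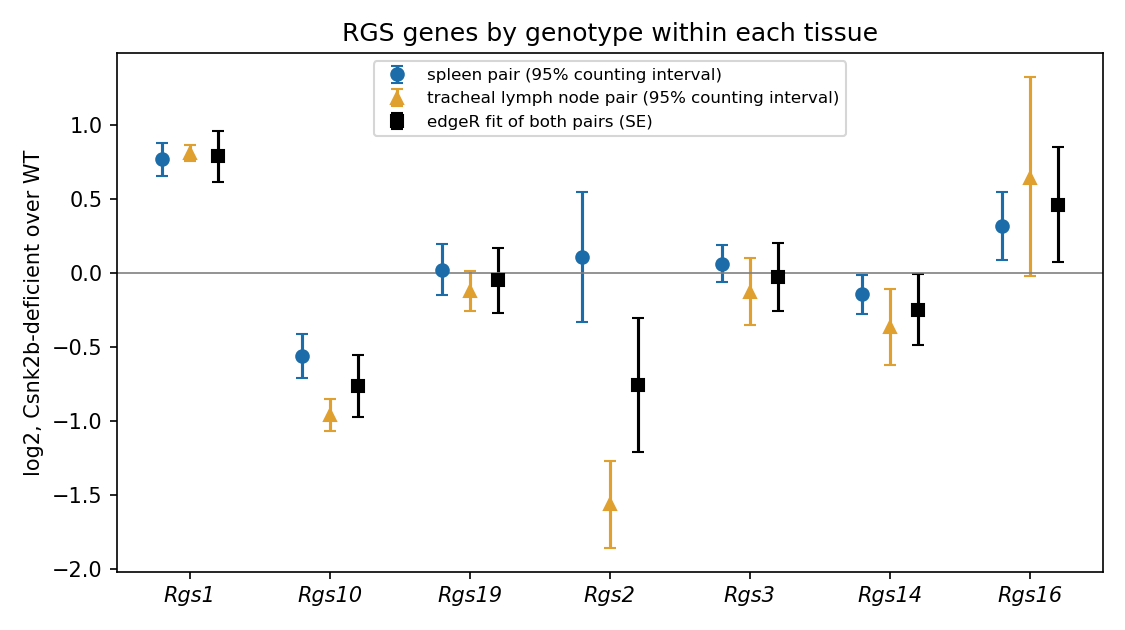
Log2 ratio of Csnk2b-deficient to WT for each RGS gene in the spleen pair (circles) and the lymph node pair (triangles) with 95% counting intervals, and the edgeR log2 fold change with its SE (squares). The 2 Rgs1 pair values lie near 0.8, those of Rgs10 are both below 0, and those of Rgs2 are far apart.

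The order of the members could be compared on RPKM (exon reads per kilobase of exon, scaled to total gene reads), which corrects for length. In WT Tregs Rgs10 led in both tissues, at 75.4 RPKM for spleen and 184 for lymph node, and in Csnk2b-deficient Tregs Rgs1 led in both, at 60.6 and 293 RPKM. The Rgs1 to Rgs10 ratio of RPKM was 0.471 (WT) and 1.19 (Csnk2b-deficient) for spleen Tregs, and 0.931 and 3.18 for lymph node Tregs. Summed over the 7 genes the level was 232 (WT) and 233 RPKM (Csnk2b-deficient) for spleen, and 465 and 472 RPKM for lymph node. On CPM, which is scaled by TMM and not by length, the sums were 738 and 804 for spleen, and 1915 and 2338 for lymph node. Of the summed RPKM Rgs1 made up 15.3% and 26.0% for spleen, and 37.0% and 62.1% for lymph node. Rgs10 made up 32.5% and 21.9% of the summed RPKM for spleen, and 39.7% and 19.5% for lymph node. Rgs2 was the lowest member of the spleen (3.18 and 3.44 RPKM) and Rgs16 that of the lymph node (2.17 and 3.29 RPKM). In all, 7 neighbouring pairs in the order lay within 1.2-fold of each other. In WT spleen these were Rgs1 with Rgs19 (35.5 and 33.0 RPKM) and Rgs16 with Rgs3 (16.2 and 14.4). In Csnk2b-deficient spleen they were Rgs1 with Rgs10 (60.6 and 51.1) and Rgs10 with Rgs14 (51.1 and 49.4). In WT lymph node they were Rgs10 with Rgs1 (184 and 172) and Rgs14 with Rgs2 (17.8 and 16.0), and in Csnk2b-deficient lymph node Rgs2 with Rgs3 (5.27 and 4.75). The leading gene was thus within 1.2-fold of the next in Csnk2b-deficient spleen and in WT lymph node Tregs. With 1 library per cell of the design, no spread between like libraries stands behind this order. Among all genes tested, Rgs1 stood above 88.5% in WT spleen and above 98.5% in Csnk2b-deficient lymph node Tregs by RPKM.

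**Figure D3:**
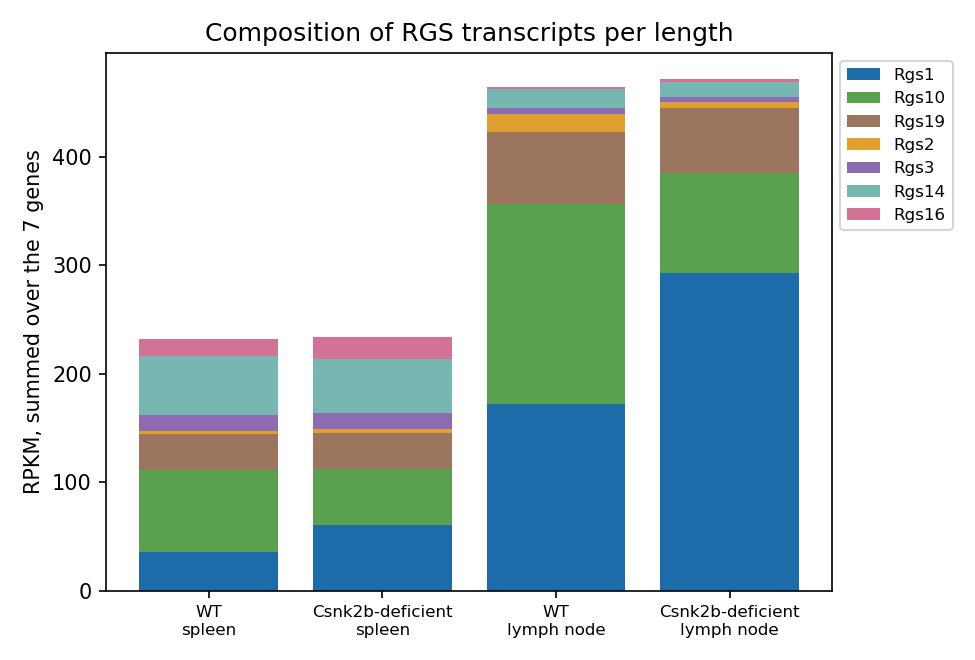
RPKM of the 7 RGS genes stacked for each library. The bars reach 232 and 233 for spleen and 465 and 472 for lymph node, and the Rgs1 part of the bar is taller in the Csnk2b-deficient library of each tissue.

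The second comparison set lymph node against spleen Tregs in the same fit. All 7 members were called at an adjusted p below 0.05, beside 45.4% of all genes tested, with 4 higher in the lymph node (23.3% of all genes) and 3 lower (22.2%). The lymph node and spleen libraries did not overlap for any member, as for 76.6% of all genes. The median size of the tissue change was 1.52 on the log2 scale for the members and 1.12 for all genes. The labels' protocols give other RNA and library kits for samples 1 and 2 than for samples 3 and 4. If those numbers follow the order of listing, the kit goes with the tissue, and tissue and kit cannot be told apart. In bulk libraries, too, more cells that express a gene and more RNA per cell cannot be told apart.

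Rgs1 was higher in the lymph node by 2.72 ± 0.18 on the log2 scale (SE, n = 2 per tissue, edgeR adjusted p = 2.77e-06), or 6.60-fold, with 2.70 between the WT libraries and 2.74 between the Csnk2b-deficient ones. Rgs10 was higher by 1.52 ± 0.21 (adjusted p = 0.000174) and Rgs19 by 1.38 ± 0.22 (adjusted p = 0.00045), both by edgeR. Rgs2 was higher by 1.94 ± 0.46 (edgeR adjusted p = 0.00537), but by 2.73 between the WT libraries and 1.07 between the Csnk2b-deficient ones. The lower members were Rgs16 at -2.30 ± 0.40 (4.92-fold lower, edgeR adjusted p = 0.000764), Rgs14 at -1.29 ± 0.24 (0.00121) and Rgs3 at -1.10 ± 0.23 (0.00265). On uniquely placed reads the Rgs3 difference was -0.64 ± 0.23 and its call was lost (edgeR adjusted p = 0.0556). Markers of other cells were also higher in the lymph node libraries. The B cell sum was 28.2 (WT) and 32.2 CPM (Csnk2b-deficient) for spleen and 168 and 116 CPM for lymph node, the NK sum 20.04 and 27.7 against 400 and 160 CPM, and the CD8 sum 16.4 and 12.5 against 52.5 and 39.0 CPM. Among these lists and the myeloid one, Cd79b, Nkg7, Cd8b1 and Lyz2 were called higher in the lymph node, and the part of such cells in the RGS differences was not tested. The activation-induced members lay on both sides, with Rgs1 and Rgs2 higher and Rgs16 lower. Without WT spleen Tregs and without a genotype term, 4 members were called beside 18.9% of all genes, and Rgs2, Rgs3 and Rgs14 were lost (edgeR adjusted p = 0.0751, 0.0602 and 0.0587). Without Csnk2b-deficient spleen Tregs 4 were called beside 19.8% of all genes, and Rgs2, Rgs3 and Rgs10 were lost (0.0537, 0.0734 and 0.0552).

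**Figure D4:**
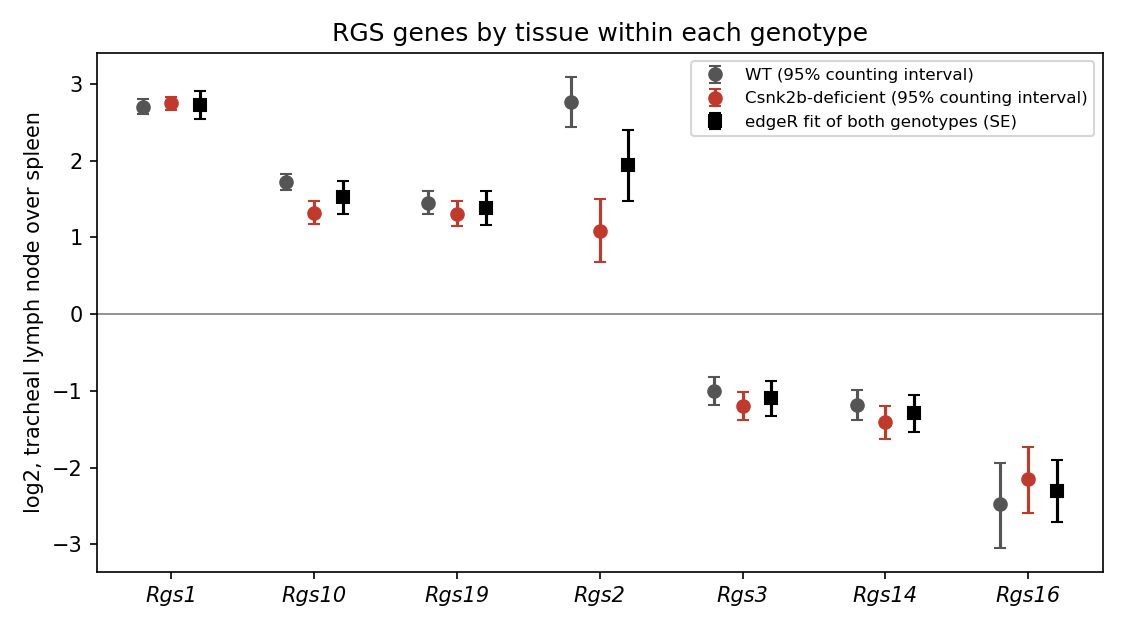
Log2 ratio of tracheal lymph node to spleen for each RGS gene in WT (grey) and Csnk2b-deficient (red) Tregs with 95% counting intervals, and the edgeR value with its SE (squares). Rgs1, Rgs10, Rgs19 and Rgs2 lie above 0 and Rgs3, Rgs14 and Rgs16 below it in both genotypes, and the Rgs2 values of the genotypes are far apart.

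The promoters of Rgs2, higher in the lymph node, and of Rgs16, lower there, are shown as members of one subfamily with opposite tissue differences. Both are the 250 bases before the start site from RefSeq (GRCm38.p6), chr1:144004150-144004399 on the minus strand for Rgs2 and chr1:153740103-153740352 on the plus strand for Rgs16. Capitals mark a CCAAT match on either strand.
Rgs2: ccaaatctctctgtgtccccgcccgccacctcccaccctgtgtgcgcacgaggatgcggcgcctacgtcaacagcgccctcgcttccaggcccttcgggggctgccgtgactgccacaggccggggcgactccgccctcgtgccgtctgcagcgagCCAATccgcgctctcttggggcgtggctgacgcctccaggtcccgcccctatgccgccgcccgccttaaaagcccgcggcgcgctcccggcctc
Rgs16: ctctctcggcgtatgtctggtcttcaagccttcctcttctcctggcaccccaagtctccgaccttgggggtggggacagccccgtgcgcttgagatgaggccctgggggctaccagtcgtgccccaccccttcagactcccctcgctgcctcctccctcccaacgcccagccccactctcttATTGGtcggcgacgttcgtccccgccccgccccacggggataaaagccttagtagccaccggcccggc
Each held 1 CCAAT match, 94 bases before the start on the plus strand for Rgs2 and 68 before it on the minus strand for Rgs16, and 33.9% of 32851 promoters of this length held it. Neither window held TGACGTCA, the cyclic AMP response element (1.55% of promoters), the AP-1 motif TGANTCA (6.75%) or TATAAA of the TATA box (12.4%). Neither held the NFAT core GGAAAA (20.4%). Both strands were searched for each. The windows were 72.4% and 66.4% G or C. Entries matched 5 of the 7 members, and Rgs1 and Rgs14 had none.

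Read placement within the genes was described by the share of reads outside exons and the share across exon junctions. Reads outside exons were not in the exon read counts, while junction reads were part of them. Over all genes, 21.5% to 24.0% of gene reads fell outside exons. For Rgs19 that share was 19.4% (95% exact interval 16.7% to 22.3%) for WT and 20.5% for Csnk2b-deficient spleen, against 0.436% (0.119% to 1.11%) and 1.68% for lymph node. For Rgs3 it went the other way, with 28.4% and 25.4% for spleen and 45.3% and 37.1% for lymph node. For Rgs14 it was 34.2% (29.3% to 39.3%) in Csnk2b-deficient lymph node Tregs and 19.8% to 22.1% in the other libraries. Rgs1 had few such reads, 2.70% to 5.52%. Reads across an exon junction made up 27.4% of Rgs14 exon reads in both spleen libraries and 14.02% and 14.04% in the lymph node libraries. These shares were alike between the genotypes and differed between the spleen and lymph node libraries. If the kit goes with the tissue, tissue and kit cannot be told apart for any share given here. For Rgs1 they made up 16.6% and 16.8% for spleen, and 12.0% and 11.3% for lymph node, compared with 18.5% to 19.6% over all genes.

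**Figure D5:**
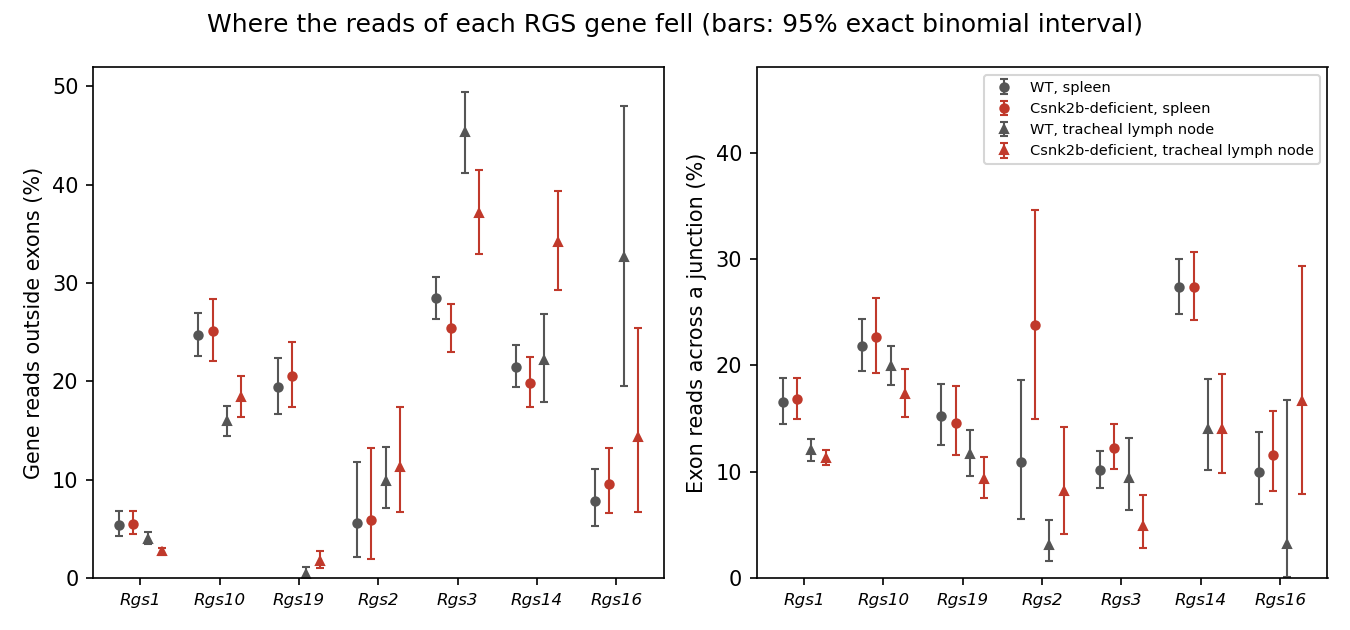
Share of gene reads outside exons (left) and share of exon reads across a junction (right) for each RGS gene and library, with 95% exact binomial intervals (grey WT, red Csnk2b-deficient, circles spleen, triangles tracheal lymph node). Rgs19 is near 0% outside exons in the lymph node, and the junction share of Rgs14 is 27.4% for spleen and near 14.02% for lymph node.

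Beyond the members, 17 other genes whose symbols begin with Rgs were listed, and 3 of them passed the filter, Rgs9, Rgs11 and Rgs12. None of the 3 was called by genotype or tissue, beside 0.144% and 45.4% of all genes tested. Rgs9, best known in the retina and striatum, had 129 (WT) and 105 (Csnk2b-deficient) reads for spleen, and 44 and 14 for lymph node. Rgs12 had 46 and 79, and 12 and 20 reads. Rgs11 had 57 and 60 reads for spleen, and 0 and 24 for lymph node. Of the rest, 7 had 0 reads in all 4 libraries (Rgs4, Rgs6, Rgs7, Rgs17, Rgs21, Rgs22 and Rgs7bp), and 7 had 1 to 5 reads in all (Rgs5, Rgs8, Rgs13, Rgs18, Rgs20, Rgsl1 and Rgs9bp). The genes listed next to Rgs1 on chromosome 1 are Rgs13 and Rgs21, with at most 1 read in a library, and Rgs8, next to Rgs16, had at most 3. Whether level or change goes with position was not tested. Uchl5, the other gene beside Rgs2, had -0.23 ± 0.33 on the log2 scale by genotype, and Tial1, beside Rgs10, had -0.54 ± 0.28. Lman2, before Rgs14, had -0.14 ± 0.24, while BC017158, before Rgs10, had 315 and 205 reads for spleen and 3 and 10 for lymph node. Tcea2, 348 bases from Rgs19, had -0.57 ± 0.66. None of these neighbours was called by genotype, beside 0.144% of all genes tested. Slc34a1 after Rgs14 and 4930526D03Rik after Rgs19 had 0 reads, and 4933430I17Rik and Gm11210 beside Rgs3 had at most 8 in a library.

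Genes of the G proteins that RGS proteins act on gave 0 calls by genotype, beside 0.144% of all genes tested. For the tissue calls given below, all genes tested had 23.3% higher in the lymph node and 22.2% lower. Of 15 alpha subunit genes 10 were tested and 0 called, with a median log2 fold change of 0.15. Gnas, the stimulatory subunit, had -0.42 ± 0.22 and Gnai2, the main inhibitory subunit of lymphocytes, -0.39 ± 0.21 (both edgeR adjusted p = 0.89). Gnas, Gnai2 and Gna11 were lower in the lymph node, and 0 were higher. Of 17 beta and gamma subunit genes 9 were tested and 0 called by genotype, with a median of -0.076. Gng12 had -1.59 ± 0.64 and Gnb2 -1.002 ± 0.42. Gng5 and Gng10 were higher in the lymph node, and Gnb2 was lower there.

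Genes that end or carry the signal at other steps also gave 0 calls by genotype, beside 0.144% of all genes tested. Their tissue calls stand beside 23.3% of all genes higher in the lymph node and 22.2% lower. Of 8 receptor kinase and arrestin genes 6 were tested, with a median of -0.25, and Grk6 had -0.49 ± 0.23 and Arrb1 -0.50 ± 0.29. In the lymph node Adrbk1, Grk6, Arrb1 and Arrb2 were lower. All 8 other G-protein regulators were tested, with a median of -0.12. Arhgef1, which encodes an exchange factor with an RGS-like domain, had -0.83 ± 0.25 (unadjusted p = 0.00744) and Arhgef11 -0.77 ± 0.38, and 4 of the 8, Gpsm1, Gpsm3, Arhgef1 and Arhgef12, were lower in the lymph node. Of 19 effector genes 11 were tested, with a median of 0.15. The adenylyl cyclase gene Adcy6 had 293 and 59 reads for spleen and 112 and 25 for lymph node (-2.08 ± 0.47, SE, n = 2 per genotype, edgeR adjusted p = 0.223), lower in both pairs. Plcb2, a phospholipase C gene, had -0.74 ± 0.26. In the lymph node 2 effector genes were higher and 7 lower.

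Of 36 receptor genes 27 were tested, with a median of 0.15, and 1 was called by genotype, beside 0.144% of all genes tested. It was Gpr15, which guides T cells to the colon, and it was higher (2.63 ± 0.27, edgeR adjusted p = 0.00351). Ccr2, a receptor of inflammatory chemokines, had 1.35 ± 0.29 (adjusted p = 0.209 by edgeR). Both were higher in both pairs, as were 8 of the 27 tested receptor genes, beside 27.7% of all genes. Also 8 of the 27 were lower in both pairs, beside 29.2% of all genes. By tissue, 5 of the 27 were higher in the lymph node (Ccr6, Ccr7, Ccr8, Gpr15 and Gpr18), beside 23.3% of all genes tested. Another 6 were lower (S1pr4, Cxcr4, Gpr132, Adora2a, Lpar2 and Ltb4r1), beside 22.2%. Of 20 immediate early genes, which respond to activation and handling, 19 were tested and 0 called by genotype, with a median of -0.030. Klf6 had 0.93 ± 0.26 and Dusp2 -0.65 ± 0.26. In the lymph node 2 of the 19 were higher, Cd69 and Btg2, and 10 were lower, beside 23.3% and 22.2% of all genes. Rgs1 and Rgs2 thus lay with the 2 and Rgs16 with the 10.

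The genes most like each member over the 4 libraries were found by the Euclidean distance of centred log2 CPM, among tested genes with a mean of at least 5 CPM. They were Trav7d-3 and Tmem60 for Rgs1 (distances 0.179 and 0.328), Shq1 and Prim1 for Rgs2 (0.221 and 0.233), and 1110034A24Rik and Dnahc8 for Rgs3 (0.0187 and 0.0419). Rgs10 was nearest to Lgmn and Wdr74 (0.0176 and 0.0977), Rgs14 to Msi2 and Dtnb (0.0658 and 0.0676), Rgs16 to 8030462N17Rik and Scyl3 (0.0928 and 0.114), and Rgs19 to Zfp277 and Btf3l4 (0.0205 and 0.0276). The median distance of all such genes was 3.00 from Rgs1 and 1.57 to 2.43 from the others. With 4 libraries such likeness is a description only.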

How the data were processed

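Messenger RNA of sorted Tregs was sequenced on a MiSeq in 4 libraries, per the labels. The submitters' processing notes name CASAVA 1.8.2 and mm9, without an aligner or annotation. The deposited tables hold counts of reads per gene, total and uniquely placed, per the file headers, and the exon length. Of 37583 features, 9551 without exon length were left out. Total exon read counts went into edgeR 4.0.16 (R 4.3.3) with TMM scaling, the filterByExpr filter by genotype and a robust quasi-likelihood fit of tissue plus genotype, Benjamini-Hochberg over all genes, threshold 0.05. Each SE divides the log2 fold change by the root of F. Pair values subtract log2 CPM (prior count 2), and pair ratios use scaled library sizes. RPKM was computed from the counts. The replicate number marks the tissue in the labels, so the libraries were paired by tissue. The log2 CPM difference between the tissues correlated at 0.783 between the genotypes. Because replicate number and tissue coincide, this value cannot tell whether there is pairing beyond tissue. Alternatives included DESeq2 1.42.0 and limma-voom (limma 3.58.1). The rule for named genes took all members, each called gene and the 2 of smallest unadjusted p in each pathway list, the listed neighbours and the 2 most alike genes. A neighbouring gene is not reported here. The members, lists and tests were chosen with earlier results of these data known. P-values measure only the spread between these libraries.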

Additional observations from a re-analysis of the deposited data

Results flagged for a closer look

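For 3 members the log2 ratio of Csnk2b-deficient to WT had one sign in the spleen and the other in the lymph node, and the difference between tissues was not tested, since each tissue had 1 library per genotype. Rgs2 had 0.11 for spleen and -1.55 for lymph node. Rgs3 had 0.065 and -0.13, and Rgs19 had 0.024 and -0.12, and for both genes the counting intervals of the pair ratios included 1 in each tissue.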

How the results depend on the processing

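The members called by genotype numbered 0 with DESeq2-type size factors, with upper-quartile scaling, when filtered at 5 CPM, on uniquely placed reads and with no replicate block, and 1, Rgs1, with no filter except 0 reads, with the DESeq2 Wald test and with limma-voom. The cause was not tested. With no replicate block the Rgs1 value was 0.81 ± 1.29. Rgs1 and Rgs16 were higher and Rgs10 and Rgs14 lower in both pairs under all 5 alternatives that recompute the pair values (scaling, filter and read placement). The Rgs3 genotype value turned sign to 0.0042 with no replicate block and to 0.015 on uniquely placed reads, where 6 members were called by tissue beside 43.8% of all genes. Upper-quartile scaling moved the median tissue change of all genes from -0.17 to -0.32, and each member kept its direction by tissue. Leaving out 1 library (fits without the other term, since the pair is broken) gave 0 to 0 members called by genotype and 4 to 7 by tissue, beside 18.9% to 67.6% of all genes called by tissue in those fits. In those fits tissue and genotype overlap, and the genotype value ranged from -1.09 to 2.75 for Rgs1, -1.99 to 0.78 for Rgs2, -0.73 to 0.62 for Rgs3, -1.62 to 0.27 for Rgs10, -1.09 to 0.53 for Rgs14, -1.09 to 2.11 for Rgs16 and -0.83 to 0.85 for Rgs19. Other values of turned sign were 0.51 for Rgs3 and 0.36 for Rgs14 without Csnk2b-deficient replicate 2, -0.36 for Rgs16 without WT replicate 2 and 0.43 for Rgs19 without Csnk2b-deficient replicate 1. Counts in both pairs could not be given without a library, and DESeq2, limma-voom and the fit with no replicate block give no pair values of their own. Depth limits Rgs16 in the lymph node, with 31 and 54 reads.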
